A study of Mus musculus with 6 samples.

Results

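The 8 genes described here are mouse genes whose human counterparts cause disease when a run of glutamine codons expands: Htt, Atxn1, Atxn2, Atxn3, Atxn7, Cacna1a, Atn1 and Tbp. They were taken by name from a total of 21924 protein-coding genes, and their peaks were all peaks over or within 1 kb of any of their annotated transcript starts. This gave 82 of the 227418 peaks in the 6 deposited H3K4me3 peak lists, between 12 in the DKI list and 16 in the Loxapine list.

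H3K4me3, trimethylation of lysine 4 of histone H3, was profiled by ChIP-Seq in STHdh cells, conditionally immortalised striatal progenitor lines that are female and of strain C57BL/6. Q7SST was the wild type STHdhQ7 line and Q111SST the homozygous knock-in STHdhQ111 line, both held for 24 hours in serum-free medium with the DMSO vehicle. The other 4 lists were from STHdhQ111 cells given cyproheptadine, loxapine, diacylglycerol kinase inhibitor II (DKI) or meclizine at 10 uM for the same time, also without serum. Each genotype was a single cell line and each condition a single list, so genotype, line and library cannot be told apart. Without replicates every difference below is a description.

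A glutamine codon is CAG or CAA. In the polyglutamine diseases, which include Huntington's disease, dentatorubral-pallidoluysian atrophy and several spinocerebellar ataxias, the run becomes longer than in healthy people and the protein carries a lengthened glutamine tract. Apart from this tract the proteins have little in common, and most of the genes are expressed widely. H3K4me3 usually lies as a broad domain over the starts of active genes and runs into the first part of the transcribed region. A run close to a start can therefore lie inside the mark, and a run far from every start more often lies outside it.

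In the mouse reference (mm10, which is GRCm38, positions counted from 1), the longest glutamine runs of the 8 genes were short. Tbp had 13 such codons, Htt 7, Atxn3 6 and Atxn7 5, and the longest run in each of Atxn1, Atxn2, Cacna1a and Atn1 was 3 codons. The runs of 5 or more codons are shown with 15 coding bases on each side, because where the peaks ended relative to them is described below. Capitals mark the run, read 5′ to 3′ on the coding strand from the reference genome.
Htt: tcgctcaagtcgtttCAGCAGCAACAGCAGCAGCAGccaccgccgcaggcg
Atxn3: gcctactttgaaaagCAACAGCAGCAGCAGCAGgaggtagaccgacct
Atxn7: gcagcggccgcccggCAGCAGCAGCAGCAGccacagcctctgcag
Tbp: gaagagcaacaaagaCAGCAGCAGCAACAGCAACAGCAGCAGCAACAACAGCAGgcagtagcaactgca
The Htt run lay in exon 1 on the plus strand (chr5:34761958-34761978, codons 18 to 24), beginning 214 bp after the reference start. The Atxn7 run was in exon 3 (chr14:14013156-14013170, plus strand, codons 25 to 29) and began 51716 bp after the reference start. The Atxn3 run was in exon 10 (chr12:101926563-101926580, minus strand), 31666 bp from the start, and the Tbp run in exon 3 (chr17:15504391-15504429, plus strand), 4503 bp from the start. The expanded run of the STHdhQ111 line is not part of this reference, so the Htt position below refers to the 7 codons of the reference in all 6 lists. The study describes the huntingtin gene of these lines as human, and the mutant line as a knock-in, so the sequence around the run may differ from the mouse reference by more than the run. The Htt peak ends below rest on reads placed on the mouse sequence, and the part of such differences in them was not tested.

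All 8 genes were marked, that is had at least 1 peak within 1 kb of a start, in each of the 6 lists. The background was 59.8% of coding genes in Q7SST, 58.3% in Q111SST, 55.3% in Cyproheptadine, 58.1% in Loxapine, 55.7% in DKI and 58.6% in Meclizine. Strength is given below as the percentile of a peak's score among all peaks of its own list, because the highest score ran from 762 in Q7SST to 1734 in DKI and the scales of the lists are not known to match. The peaks closest to the 1 kb limit were weak ones inside Atxn7 and Atxn2, 745 to 987 bp from a start, and the nearest peaks left out lay 1215 to 1271 bp upstream of Tbp.

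Of 13 related genes (the ataxin-like genes, Rere, the Tbp-like genes, Cacna1b, Cacna1e, Josd1 and Josd2), 11 were marked in every list, and Tbpl2 and Cacna1e in none. Against the cell type named in the labels, 6 of 7 neural and striatal progenitor genes were marked in Q7SST and 4 to 6 in the mutant lists, with Gsx2 unmarked in all 5 mutant lists and Sox2 unmarked in Q7SST. Of 5 striatal projection neuron genes 1 to 3 were marked, Drd1 and Drd2 in no list. Fibroblast and mesenchymal genes were marked in 3 of 5 in Q7SST and 4 of 5 in each mutant list, and glial genes in 1 or 2 of 6.

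**Figure D1:**
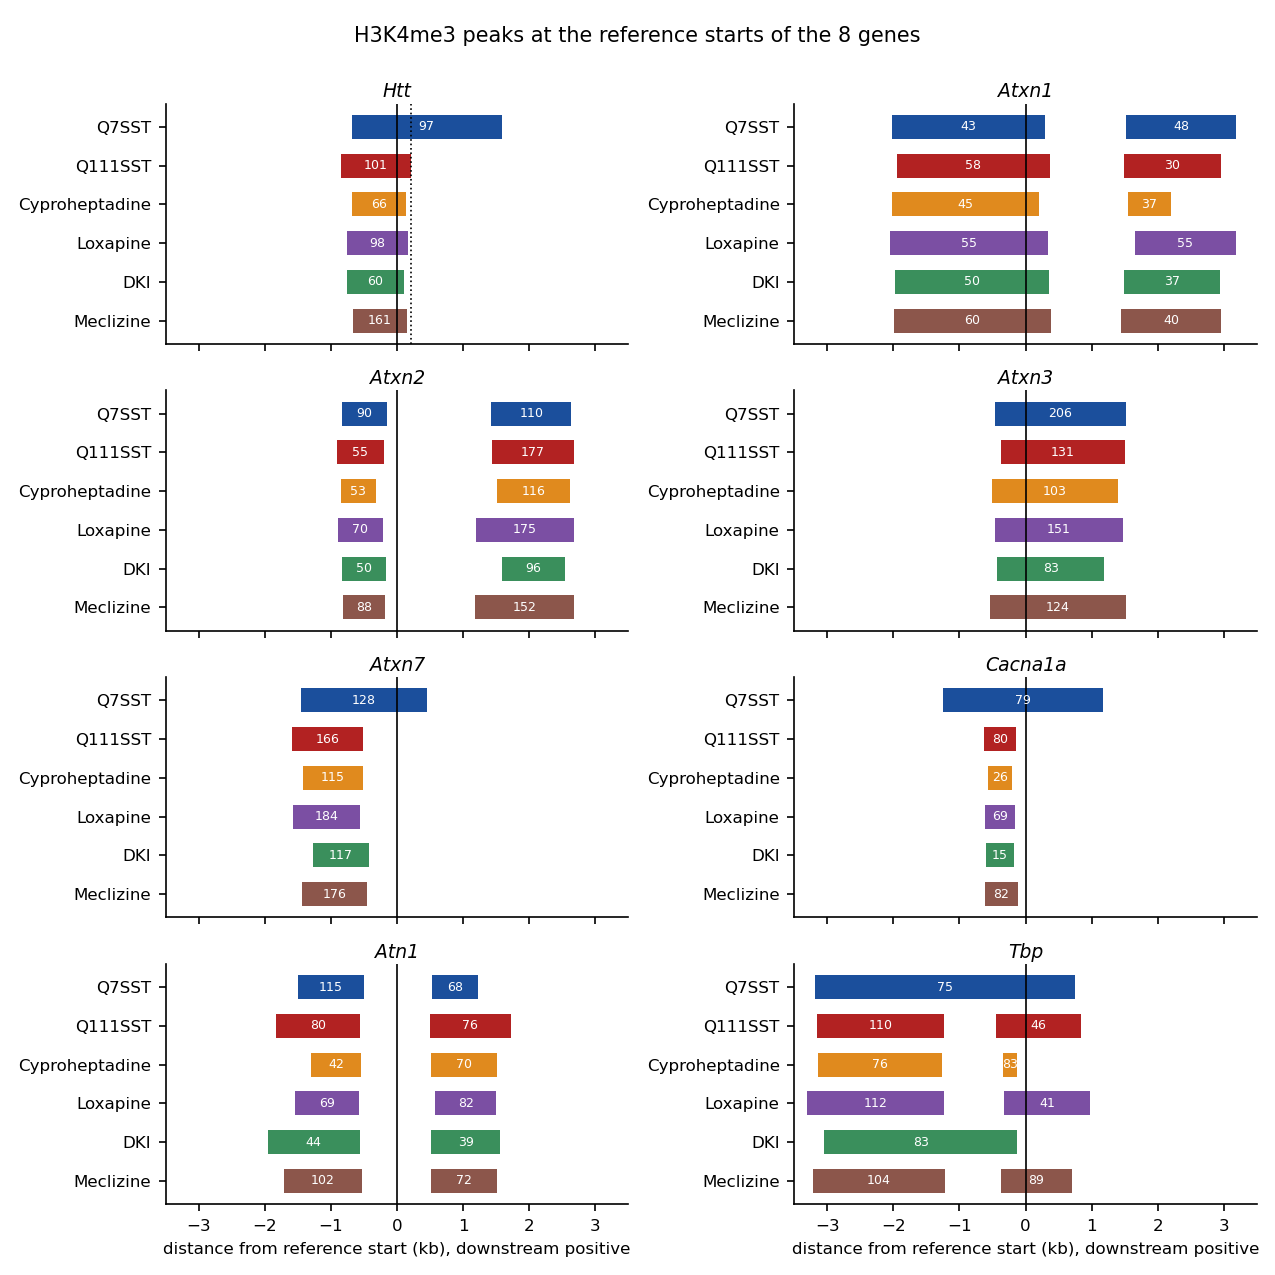
H3K4me3 peaks from 3.5 kb upstream to 3.5 kb downstream of the reference start (solid line) of each gene, 1 bar per peak and 1 row per list, with the deposited score printed on the bar. The dotted line marks the glutamine run of Htt. The Q7SST bars of Htt, Atxn7 and Cacna1a run further downstream than the mutant bars, Atxn2 and Atn1 have a gap over the start in all 6 lists, and the Atxn3 bars and the Atxn1 bars over the start are alike. The second Atxn1 bar is shorter in Cyproheptadine (641 bp) than in the other lists (1444 to 1674 bp).

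Htt encodes huntingtin, a large scaffold protein with roles in vesicle transport and autophagy (ENSMUSG00000029104.15, chr5:34761740-34912534, plus strand, 67 exons). Its single promoter peak covered the reference start at 34761744 in all 6 lists. In Q7SST it reached from 686 bp upstream to 1581 bp downstream and was 2268 bp wide. In the 5 mutant lists it was 814 to 1048 bp wide and ended 204 bp downstream in Q111SST, 142 in Cyproheptadine, 163 in Loxapine, 101 in DKI and 149 in Meclizine. The Q7SST peak therefore ran 1377 bp past the furthest mutant end, while the mutant ends lay within 103 bp of each other.

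The mutant ends fell near the beginning of the coding sequence, which starts 163 bp after the reference start. The DKI, Cyproheptadine and Meclizine peaks ended before it, the DKI peak 113 bp, the Cyproheptadine peak 72 bp and the Meclizine peak 65 bp ahead of the glutamine run. The Loxapine peak ended on the first coding base, and the Q111SST peak held 42 coding bases and ended 10 bp before the run, with the Loxapine end 51 bp before it. The run was thus outside the peak by 10 to 113 bp in the mutant lists, whereas the Q7SST peak went 1347 bp past it and 1216 bp past the end of exon 1. The coding part of exon 1 (chr5:34761907-34762109, plus strand) is shown because the mutant ends lie in front of or within its first bases, with the run in capitals.
Htt exon 1, coding part: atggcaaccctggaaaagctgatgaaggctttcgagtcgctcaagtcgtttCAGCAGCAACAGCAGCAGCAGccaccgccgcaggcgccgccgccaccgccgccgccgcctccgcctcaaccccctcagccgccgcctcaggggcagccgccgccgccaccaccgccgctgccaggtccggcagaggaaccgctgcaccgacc
Behind the run the sequence is dense in C and G. The 300 bp that follow the furthest mutant end were 75.7% GC, the whole 1377 bp covered in Q7SST only were 51.9% GC, and the 766 bp shared by the peaks of all 6 lists were 60.8% GC. The part of base composition in the difference was not tested.

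Over all coding genes whose main peaks overlapped in the 6 lists (10985 genes), the median distance from the furthest mutant end to the Q7SST end was -96 bp. A single list is set here against the furthest of 5, so values below 0 are common without any difference between the lines. A Q7SST end at least 1000 bp past every mutant end was found in 0.455% of these genes, and Htt ranked 28th. The opposite arrangement, a Q7SST end at least 1000 bp short of every mutant end, was found in 0.492%. Atxn7, at 872 bp, ranked 68th. The values of Atxn3, Atxn2, Atxn1 and Tbp were -6, -39, -84 and -227 bp. Cacna1a had -98 bp at its strongest peak, far downstream in the gene, and 1285 bp at its reference start, where it ranked 33rd of 10767 genes, and Atn1 had no value since its strongest peak was not the same in all lists.

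**Figure D2:**
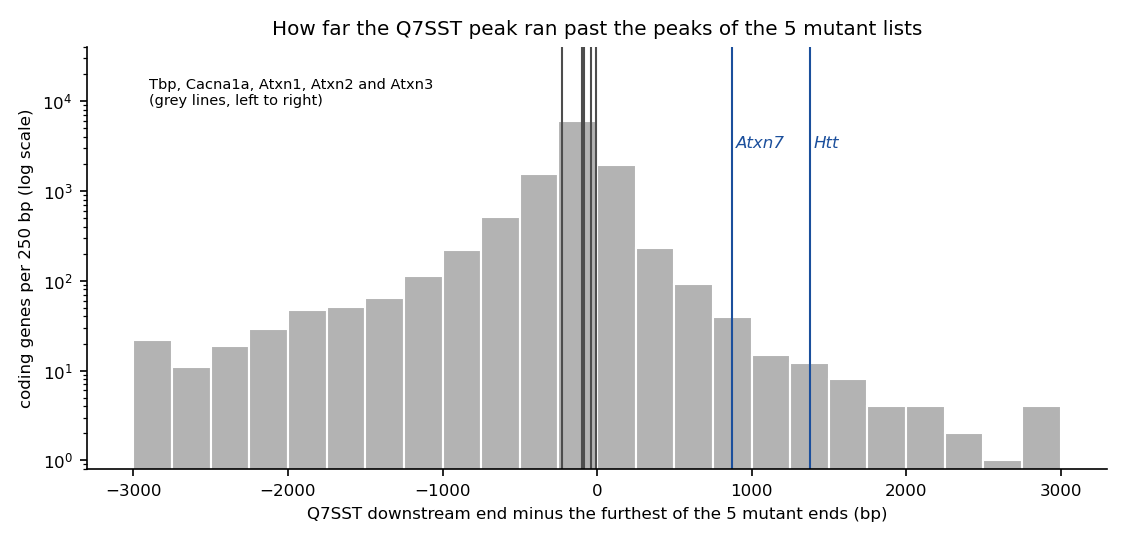
Number of coding genes (log scale) by the Q7SST downstream end minus the furthest of the 5 mutant ends, in bp, with values beyond 3000 bp in either direction counted in the outermost bars. Htt at 1377 bp and Atxn7 at 872 bp (blue lines) lie in the thin right tail, and the other 5 genes with a value (grey lines) lie between -227 and -6 bp, Cacna1a by its strongest peak and not the one at its reference start.

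The genes most like Htt in this pattern were found from the 5 downstream ends relative to Q111SST, as the Euclidean distance in bp over 5 differences in 6 lists. The nearest were Notch1 (142 bp), Zhx2 (162 bp), Cnn3 (166 bp), 1810049J17Rik (177 bp) and Ccne1 (195 bp). Notch1, which encodes a cell surface receptor that regulates cell fate, ended 3114 bp downstream in Q7SST and 1754 to 1774 bp downstream in the mutant lists. Ccne1, which encodes cyclin E1 of the cell cycle, ended 1042 bp downstream in Q7SST and 158 to 207 bp upstream of its start in the mutant lists. Zhx2, Cnn3 and 1810049J17Rik had Q7SST ends 1248, 1260 and 1513 bp past the furthest mutant end.

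The strength of the Htt peak did not follow its width. Its percentile was 74.5 in Q7SST, 79.4 in Q111SST, 69.7 in Cyproheptadine, 79.0 in Loxapine, 61.3 in DKI and 90.3 in Meclizine, at scores of 97, 101, 66, 98, 60 and 161. The narrowest peak, Meclizine at 814 bp, was the strongest, and the widest, Q7SST, stood 4th of the 6 lists.

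The 250 bp upstream of the gene (RefSeq promoter table, GRCm38.p6, chr5:34761490-34761739) lay inside the Htt peak of all 6 lists and are shown as the part of the promoter that the lists share. Capitals mark the 6-letter GC box GGGCGG or its reverse complement CCGCCC, the sequence bound by Sp1-type factors.
Htt upstream: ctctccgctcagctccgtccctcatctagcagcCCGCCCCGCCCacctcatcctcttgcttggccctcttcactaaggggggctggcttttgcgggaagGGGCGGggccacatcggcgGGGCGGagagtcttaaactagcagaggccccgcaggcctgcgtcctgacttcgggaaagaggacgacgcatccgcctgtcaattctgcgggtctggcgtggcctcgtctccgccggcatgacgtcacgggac
It held 4 GC boxes, 2 of which overlap by 1 base. This box was found in the 250 bp upstream of 32.7% of the 32851 promoters in the table, CCAAT in 33.8% and TATAAA in 12.4%, on either strand, and the Htt stretch had neither of the latter. Of the 8 genes, 5 were in the table (Atxn2, Atxn3, Atxn7, Htt and Tbp). Atxn3 held 2 GC boxes and 1 CCAAT, Atxn7 and Tbp 1 GC box each, and of the 2 Atxn2 entries 1 held 2 GC boxes and the other 1 TATAAA.

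Within Htt but away from its starts, 3 regions were found. A peak between 22.9 and 24.1 kb downstream was in all 6 lists, with scores of 34 to 85. A weak peak about 5 kb downstream was in Q111SST, Loxapine, DKI and Meclizine, with scores of 13 to 42, and in neither Q7SST nor Cyproheptadine. A further weak peak about 29 kb downstream was in Q7SST, Q111SST and Loxapine, with scores of 16 to 28.

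Atxn7 encodes a subunit of the deubiquitinating module of the SAGA coactivator complex, which acts on histone H2B (ENSMUSG00000021738.5, chr14:13961440-14107302, plus strand). Its reference start lies back to back with that of Thoc7, which encodes a subunit of the THO complex of mRNA export and starts 163 bp upstream on the other strand, so the peak belongs to both genes. In Q7SST this peak ran from 1458 bp upstream to 446 bp downstream of the Atxn7 start, was 1905 bp wide and covered both starts. In the mutant lists it was 846 to 1074 bp wide, ended 426 to 555 bp upstream of the Atxn7 start and covered neither start. The mutant peaks were at the 89.1 to 96.9 percentile and the wider Q7SST peak at 85.0, with scores of 128 in Q7SST, 166 in Q111SST, 115 in Cyproheptadine, 184 in Loxapine, 117 in DKI and 176 in Meclizine. The 872 bp covered in Q7SST only were 74.1% GC, against 50.6% in the 717 bp shared by all 6 peaks, and the part of this in the difference was not tested.

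A second promoter of Atxn7 lay 51 kb downstream, and its peak covered the glutamine run in 5 of 6 lists. The peak was 2191 bp wide in Q7SST, 2232 in Q111SST, 2033 in Cyproheptadine, 2041 in DKI and 2094 in Meclizine, at scores of 73, 82, 50, 41 and 86. In Loxapine there were 2 peaks instead, 818 bp and 1055 bp wide with scores of 81 and 85, and the run lay in the 943 bp between them, 329 bp from the nearer peak. Those 943 bp were 75.3% GC. Here the wild-type and mutant vehicle lists were alike in width, unlike at the first promoter.

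**Figure D3:**
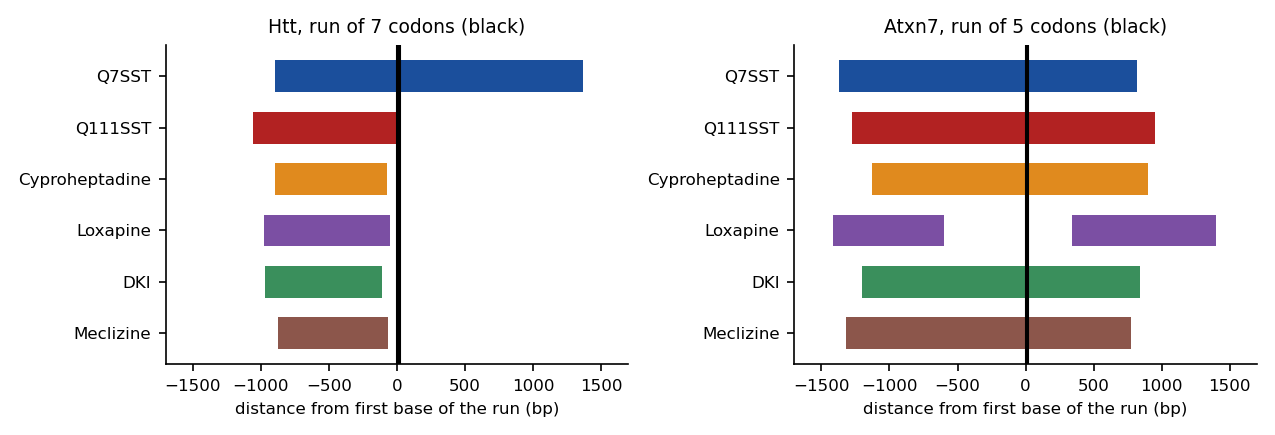
Peaks around the glutamine run (black) of Htt and of Atxn7, in bp from the first base of the run, 1 row per list. The Htt run is inside the peak in Q7SST only, with the mutant peaks ending 10 to 113 bp before it, and the Atxn7 run is inside a peak in all lists except Loxapine, where it falls in a gap of 943 bp.

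A run of glutamine codons lay wholly in a peak for 2 of 8 genes in Q7SST (Htt and Atxn7), for 1 in Q111SST, Cyproheptadine, DKI and Meclizine (Atxn7), and for 0 in Loxapine. For comparison, 65 coding genes had a run of at least 5 codons that began within 2 kb downstream of the reference start. Of the 8 genes only Htt was among them, so their shares are no background for the counts of the 8. In the 65 genes the run lay in a peak in 27.7% in Q7SST, 24.6% in Q111SST, 16.9% in Cyproheptadine, 21.5% in Loxapine, 18.5% in DKI and 29.2% in Meclizine. It was covered in Q7SST and in no mutant list in 3 of the 65, which were Htt and, named after their values were seen, Bmp6 and Kcnn3. The other members' runs were far from any peak, 2445 to 2727 bp for Atxn1, 3091 to 24544 bp for Atxn2, 3524 to 4628 bp for Tbp, 4843 to 5042 bp for Atn1, 12794 to 12909 bp for Atxn3 and 33580 to 33634 bp for Cacna1a.

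Cacna1a encodes the pore-forming subunit of the P/Q-type calcium channel of presynaptic terminals (ENSMUSG00000034656.17, chr8:84388440-84640246, plus strand). The peak at its reference start (84415364) was 2426 bp wide in Q7SST, from 1253 bp upstream to 1172 bp downstream. In Q111SST, Cyproheptadine, Loxapine, DKI and Meclizine it was 493, 364, 459, 423 and 508 bp wide, and it ended 113 to 205 bp before the start. The scores were 79 in Q7SST, 80 in Q111SST, 26 in Cyproheptadine, 69 in Loxapine, 15 in DKI and 82 in Meclizine. The peak was thus about as strong in the 2 vehicle lists, at percentiles of 67.2 and 71.5, though it differed 4.92-fold in width, and it was weakest in DKI at the 7.8 percentile and in Cyproheptadine at 32.0. Past the furthest mutant end, the 1285 bp covered in Q7SST only were 67.2% GC, against 50.3% in the 364 bp shared by all 6 peaks.

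The strongest Cacna1a peak was not at this start. It lay at the end of the gene, beyond 223 kb downstream and near an internal annotated start at 223627 bp, with scores of 179 in Q7SST, 149 in Q111SST, 144 in Cyproheptadine, 125 in Loxapine, 148 in DKI and 163 in Meclizine. It was 1569 bp wide in Q7SST, 1759 bp in Q111SST, 1301 bp in Loxapine and 1381 bp in Meclizine, but 672 bp in Cyproheptadine and 683 bp in DKI. Inside the gene, a peak 86 to 87 kb downstream was in all 6 lists with scores of 79 to 131.

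Tbp encodes the TATA-binding protein, a general transcription factor used by all nuclear RNA polymerases (ENSMUSG00000014767.17, chr17:15499888-15528379, plus strand). It starts 137 bp from an annotated start of Psmb1, a proteasome subunit gene on the other strand, and their peak was shared. The peak covered the Tbp start in Q7SST, Q111SST, Loxapine and Meclizine, ending 752, 837, 979 and 700 bp downstream. In Cyproheptadine and DKI it ended 124 and 125 bp before the Tbp start but still covered the nearest Psmb1 start. On the upstream side the Q7SST peak reached 3193 bp and the DKI peak 3050 bp, where they were joined to the peak of the Psmb1 reference start, which was separate in the other 4 lists. Widths were therefore 3946 bp in Q7SST, 1279 in Q111SST, 222 in Cyproheptadine, 1307 in Loxapine, 2926 in DKI and 1073 in Meclizine, with scores of 75, 46, 83, 41, 83 and 89. For the joined peaks of Q7SST and DKI the lists give a single score, so the Tbp side has none of its own.

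The bases between the starts of Psmb1 and Tbp (chr17:15499752-15499887, plus strand, 57.4% GC) are shown because the Cyproheptadine and DKI peaks ended among them. Capitals mark the 123 bases between the end of the Cyproheptadine peak and the Tbp start.
Psmb1 to Tbp: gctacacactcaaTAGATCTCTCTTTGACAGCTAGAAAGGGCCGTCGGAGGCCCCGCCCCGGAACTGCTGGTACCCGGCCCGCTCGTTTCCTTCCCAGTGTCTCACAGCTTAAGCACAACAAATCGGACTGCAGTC

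Atxn2 encodes an RNA-binding protein of stress granules that takes part in control of translation (ENSMUSG00000042605.16, chr5:121711337-121816493, plus strand). In all 6 lists its reference start (121711609) lay between 2 peaks. The upstream peak ended 154 to 323 bp before the start, and the stronger downstream peak began 1181 to 1587 bp after it. The 1334 bp around the start that were in no peak of any list were 78.6% GC. The downstream peak scored 110 in Q7SST, 177 in Q111SST, 116 in Cyproheptadine, 175 in Loxapine, 96 in DKI and 152 in Meclizine. By percentile the downstream peak was lowest in Q7SST, at 79.4 against 81.3 to 96.4 in the mutant lists, whereas the upstream peak was highest in Q7SST, at 71.9 against 53.5 to 68.3. A further weak peak 95 kb downstream was in all lists except DKI.

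Atn1 encodes atrophin-1, a transcriptional corepressor (ENSMUSG00000004263.15, chr6:124742544-124756524, minus strand). Its start also lay between 2 peaks in all 6 lists, 1 ending 508 to 576 bp upstream and 1 beginning 498 to 578 bp downstream, where the predicted gene Gm45234 starts. The 1005 bp between them were 79.2% GC. The upstream peak scored 115 in Q7SST, 80 in Q111SST, 42 in Cyproheptadine, 69 in Loxapine, 44 in DKI and 102 in Meclizine, and the downstream peak 68, 76, 70, 82, 39 and 72. The downstream peak was the stronger in Cyproheptadine and Loxapine and the upstream peak in the other 4.

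Atxn3 encodes a deubiquitinating enzyme of the Josephin family (ENSMUSG00000021189.11, chr12:101918901-101958246, minus strand). It had a single peak over its start in every list, from 378 to 535 bp upstream to 1193 to 1520 bp downstream and 1625 to 2056 bp wide. The score was 206 in Q7SST, 131 in Q111SST, 103 in Cyproheptadine, 151 in Loxapine, 83 in DKI and 124 in Meclizine. At the 98.0 percentile the Q7SST peak was the strongest member peak of that list, and DKI was lowest at 75.3.

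Atxn1 encodes a nuclear protein that represses transcription together with Capicua (ENSMUSG00000046876.16, chr13:45549755-45965008, minus strand). Its start peak differed least in width among the 8 genes, with widths of 2226 to 2397 bp and scores of 43 in Q7SST, 58 in Q111SST, 45 in Cyproheptadine, 55 in Loxapine, 50 in DKI and 60 in Meclizine. It was of middle strength, from the 43.4 percentile in Q7SST to the 60.8 in Q111SST. The long gene body held 31 further regions away from its starts, 9 of them in all 6 lists. Of the 31, 15 were present in Q7SST, 24 in Q111SST, 17 in Cyproheptadine, 26 in Loxapine, 14 in DKI and 22 in Meclizine, while 3 were in all 5 mutant lists and not in Q7SST and 4 were in Q7SST only. Over all 45948 regions of the 6 lists further than 1 kb from coding starts, 52.7% were present in Q7SST, 57.6% in Q111SST, 44.2% in Cyproheptadine, 67.8% in Loxapine, 37.8% in DKI and 53.8% in Meclizine. All 6 lists held 21.5% of them, 7.17% were in the 5 mutant lists and not in Q7SST, and 14.9% were in Q7SST only. The lists themselves ran from 30758 peaks in DKI to 45564 in Loxapine. The other members had 0 to 3 such regions.

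**Figure D4:**
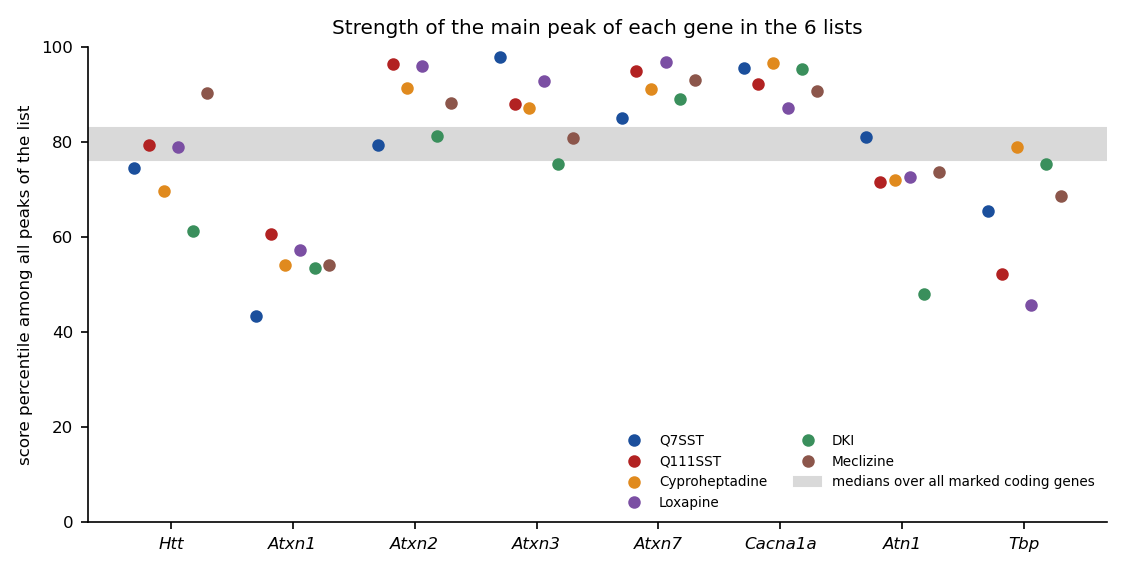
Score percentile of the main peak (the peak of highest score near any start) of each gene, 1 point per list, with the grey band spanning the 6 medians over all marked coding genes, 76.3 to 83.0. Atxn7 and Cacna1a lie above the band in all lists and Atxn1 below it in all lists, and Tbp and Atn1 spread over about 33 points each.

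The median percentile of the main peaks of the 8 genes was 80.2 in Q7SST, 83.7 in Q111SST, 83.1 in Cyproheptadine, 83.2 in Loxapine, 75.3 in DKI and 84.6 in Meclizine. Over all marked coding genes it was 80.4, 82.6, 79.5, 83.0, 76.3 and 80.3. The median width of the 8 main peaks was 1938 bp in Q7SST and 949 to 1304 bp in the mutant lists, where that of all marked coding genes was 1709 bp and 1461 to 1795 bp. The related genes also had a lower median width than all marked coding genes in the 5 mutant lists, at 1292 to 1656 bp. In Q7SST theirs was likewise the higher, at 1837 bp. Gene by gene, the median width ratio of Q7SST to Q111SST was 1.02 over the 8 genes and 0.973 over all genes compared. With the peak at the reference start, a rule added after the data were seen, it was 1.41 over the 8 genes and 0.973 over all.

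The reference start itself lay inside a peak for 6 of 8 genes in Q7SST, 4 in Q111SST, 3 in Cyproheptadine, 4 in Loxapine, 3 in DKI and 4 in Meclizine. The background, over genes with a peak within 1 kb of that start, was 82.7% in Q7SST, 82.9% in Q111SST, 74.8% in Cyproheptadine, 77.3% in Loxapine, 78.7% in DKI and 84.4% in Meclizine. Among the 10989 genes with such a peak in all 6 lists, the start was covered in Q7SST and in no mutant list in 1.25%, which include Atxn7 and Cacna1a. It was covered in all 5 mutant lists and not in Q7SST in 0.774%, with 0 of the 8 among them. It was in no peak of any list in 7.82%, which include Atxn2 and Atn1. Among the 11 marked related genes, Atxn2l and Atxn7l3 also had the start covered in Q7SST only, Josd2 had the opposite pattern of all 5 mutant lists and not Q7SST, and Rere had it covered in Meclizine only. These genes were named after their values were seen.

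Uncovered starts went with base composition across all genes. The 10989 genes were put into 5 equal groups by GC content of the 500 bp around the start. In Q111SST 66.9% of starts were covered in the group above 70.3% GC, against 88.2% to 93.9% in the other groups. In Q7SST the highest group had 69.2%, in Cyproheptadine 49.3%, in Loxapine 54.4%, in DKI 54.6% and in Meclizine 73.7%. Atxn2 (78.6% GC), Atxn7 (78.4%) and Atn1 (82.6%) were in this group, and starts covered in Q7SST only made up 2.78% of it and 0.546% to 1.14% of the others. Cacna1a (65.5%), Htt (65.1%) and Atxn3 (64.5%) were in the middle group, and Atxn1 (59.7%) and Tbp (56.9%) in the one below. The part of base composition in the members' uncovered starts was not tested.

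**Figure D5:**
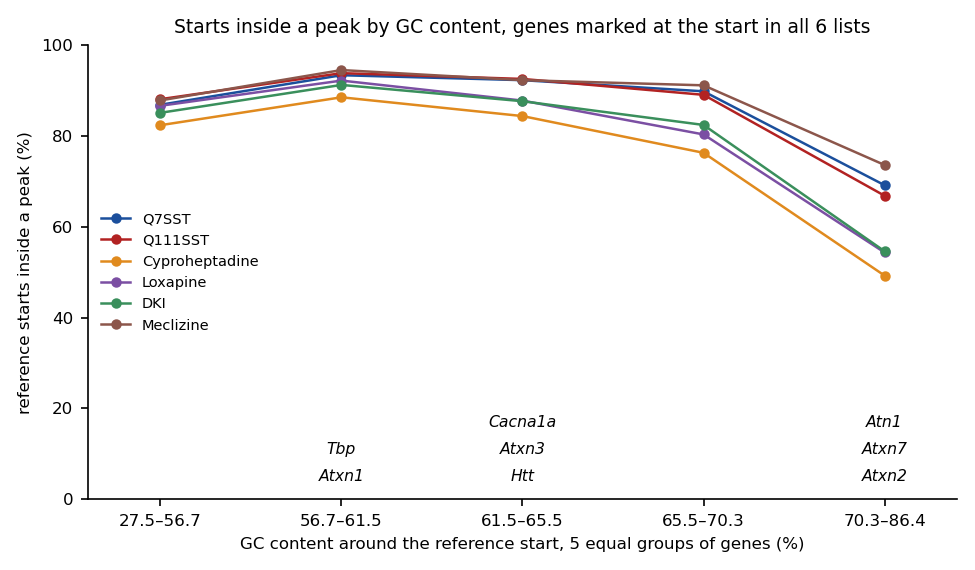
Percent of reference starts inside a peak, 1 line per list, for 10989 coding genes in 5 equal groups of GC content (%) around the start, with the 8 genes written above the axis at the group they belong to. All 6 lines are lowest in the highest group, to between 49.3% and 73.7%, where Atxn2, Atxn7 and Atn1 lie.

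Each list was then compared with Q111SST through the main peaks that overlapped in both, and the 5 comparisons share that list. Against Q111SST, the wild-type list had the downstream end at least 500 bp further in 2 of 8 genes, Htt and Atxn7, with a background of 3.62% over 11907 genes, and shorter in 0 of 8 with a background of 6.32%. It was at least 1.5-fold wider in 3, Htt (2.16-fold), Atxn7 (1.77-fold) and Tbp (3.09-fold), with a background of 5.09%, and narrower in 0, with 5.81%. The Tbp width includes the Psmb1 part that was a separate peak in Q111SST, and with peaks within 1 kb merged it was 0.988-fold that of Q111SST, leaving 2 genes. With the peak at the reference start in place of the strongest one, Cacna1a was added to both sets, with an end 1311 bp further. This rule was added after the data were seen, and the share of all genes past these limits was not computed under it. By the limit of 10 percentile points 1 gene was stronger, Tbp (13.2 points, background 8.41%), but this sets the joined peak against the Tbp side alone in Q111SST, whose separate Psmb1 peak stood at the 82.3 percentile. With peaks within 1 kb merged, a comparison of strength added after the data were seen, the Tbp difference was -16.8 points. Weaker peaks were found at 3 genes, Atxn1 (fell by 17.3 points), Atxn2 (fell by 17.0) and Atxn7 (fell by 10.0), with a background of 12.6%. The Atxn2 value is for its downstream peak, and at its reference start the difference was 12.9 points in the other direction. The balance of stronger and weaker genes depended on the percentiles used. With percentiles among main peaks only, Atxn3 (30.5 points), Atn1 (24.7), Tbp (13.2) and Cacna1a (11.7) were stronger, and Atxn2 (-41.9) and Atxn7 (-24.5) weaker, with Atxn1 no longer past the limit. With lists of equal size, Tbp (19.6), Atn1 (13.8) and Atxn3 (13.1) were stronger, and Atxn2 (-21.0), Atxn1 (-19.1) and Atxn7 (-12.2) weaker. The share of all coding genes past the limit was not computed for these other percentiles, here or in the compound lists below. These calls therefore have no background.

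Among the compound lists, Tbp passed a limit most often, and its calls in strength turned with the way peaks were split. With peaks within 1 kb merged, which joins the Psmb1 peak in every list, its difference from Q111SST was -3.3 points in Cyproheptadine, -7.06 in DKI and -7.85 in Meclizine. In Cyproheptadine, 7 genes could be compared, since the strongest Atn1 peak was another one. The downstream end was further in 0 (background 0.697%) and shorter in 1, Tbp, at -961 bp (background 8.21%). No gene was wider (background 0.518%) and 2 were narrower, Tbp and Cacna1a, the latter at its downstream peak (background 15.4%). With peaks within 1 kb merged the Tbp width was 0.757-fold that of Q111SST, leaving only Cacna1a past the limit. The unmerged Tbp peak stood 26.8 points higher (background 3.4%) and 0 were weaker (background 25.9%), although the Cacna1a peak at the reference start fell by 39.5 points. With percentiles among main peaks only, Htt (-10.4) and Atxn2 (-11.6) were weaker and Cacna1a (14.4) was stronger at its downstream peak.

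In Loxapine, again with 7 genes, no member passed any of these limits. For strength this depended on the percentiles used, since Atxn3 (12.2 points) and Cacna1a (-16.4) passed with percentiles among main peaks only, and Atxn1 (-11.6) and Tbp (-17.7) with lists of equal size. The backgrounds were 1.93% for a further and 3.72% for a shorter end, 1.92% for a wider and 7.88% for a narrower peak, and 6.89% for a stronger and 9.28% for a weaker one. The Htt peak differed from that of Q111SST by -41 bp at its downstream end, and its percentile fell by 0.32 points.

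In DKI, with 8 genes, the end was further in 0 (background 0.634%) and shorter in 1, Tbp, at -962 bp (background 13.8%). The Tbp peak, joined to that of Psmb1, was 2.29-fold wider (background 0.963%), but with peaks within 1 kb merged it was 0.732-fold that of Q111SST and passed no width limit. Cacna1a was narrower at its downstream peak (background 17.9%). The joined Tbp peak stood 23.1 points above the Tbp side of Q111SST (background 3.43%) and below the separate Psmb1 peak of that list. Weaker peaks were found at 4 genes, Htt (fell by 18.1 points), Atxn2 (fell by 15.1 at its downstream peak, while the peak at its reference start fell by 5.51), Atxn3 (fell by 12.8) and Atn1 (fell by 23.6), with a background of 38.8% and a median over all genes of -6.62 points. With percentiles among main peaks only, Cacna1a (13 points, at its downstream peak) was stronger as well, and with lists of equal size Atxn3 was not past the limit. The peak of Cacna1a at the reference start fell by 63.7 points.

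In Meclizine, 0 of 8 genes had a further end (background 1.54%) or a shorter one (background 4.03%), and 0 were wider (background 3.45%) or narrower (background 4%). Htt was stronger by 10.9 points and the unmerged Tbp peak by 16.4 points, with a background of 4.09%, and 0 were weaker, with a background of 9.89%. With percentiles among main peaks only, Atxn2 (-20.4) and Atxn3 (-13.8) were weaker. In none of the 4 compound lists did the Htt, Atxn7 or Cacna1a peak at the reference start reach as far downstream as in Q7SST. These genes were singled out by a Q7SST end past the furthest mutant end, and the compound lists are among the mutant lists. The statement therefore follows from that choice and is no separate result about the compounds. Relative to that of Q111SST, the Htt end stood at -62 bp in Cyproheptadine, -41 in Loxapine, -103 in DKI and -55 in Meclizine.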

How the data were processed

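The 6 peak lists were deposited by the authors, 1 per condition, and each line gave a position and a whole-number score. Per the submitters' processing notes, Trimmomatic 0.36, Bowtie2, SAMtools 1.3, MACS2 and the mm10 build were used. The scale of the score, the peak caller's thresholds, the input control and whether libraries were pooled are not given in the sources used here, and the read depth behind each list is unknown. Chromatin was digested with micrococcal nuclease and sequenced as single-end reads. No peak lay beyond a chromosome end of GRCm38 (0 of 21 chromosomes). Genes and starts were from GENCODE M21, and the reference transcript was the principal one, then the one with the longest coding sequence. Peak ends are given along the direction of transcription. A main peak is the peak of highest score within 1 kb of any start, then the widest. Limits of 500 bp, 1.5-fold and 10 percentile points, and 1000 bp for the Q7SST end against all 5 mutant ends, were rules of size and not tests. Genes named by rule were the 8 genes, the 5 genes nearest to Htt and coding genes sharing a main peak. The related genes and the marker genes were given mainly by counts. Single ones of these, and Bmp6 and Kcnn3, were named as well, several of them after their values were seen. Of the marker genes chosen, 1 is not reported here. Members and lists were chosen with earlier results of these data known. Python 3.11.15 and numpy 2.4.6 were used.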

Additional observations from a re-analysis of the deposited data

How the results depend on the processing

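No paired analysis was possible because the lists carried no replicates. The Htt value of 1377 bp was the same with peaks within 1 kb merged, with only peaks whose score reached the median over all 6 lists, with lists of equal size and with the span of all peaks in the window. In every list Htt had a single peak near its starts, with scores of 60 to 161 against that median of 47. These settings kept that peak as it was, so the unchanged value does not measure how stable the end is. Of 108 values computed under alternative settings, 92 stayed within 1.5 times the value reported. This compares the sizes of counts and not the genes behind them, so it is no measure of how stable the calls are. In Q7SST, 4 genes shifted in strength, and 6 with percentiles among main peaks only. This was within the limit although Atxn1 dropped out and Atxn3, Atn1 and Cacna1a came in. With a peak required to cover a start (0 bp window), 4 of the 8 genes were marked in Cyproheptadine and 5 in DKI, against 45.3% and 47.2% of all coding genes. At 1000 bp in place of 500 bp, 1 gene had a moved end in Q7SST, 0 in Cyproheptadine and 0 in DKI, and at 250 bp there were 2 in DKI. The share of all coding genes was not computed for these limits or for the changed settings that follow, so these counts have no background. With peaks merged, 2 genes changed in width in Q7SST, 1 in Cyproheptadine and 1 in DKI, and the Atxn7 run lay in a peak in Loxapine, giving 1 gene. With percentiles taken among main peaks only, 4 genes shifted in strength in Cyproheptadine, 2 in Loxapine and 4 in Meclizine, and with lists of equal size 2 in Loxapine. With the peak at the reference start, an alternative added after the data were seen, 1 gene changed in width in Cyproheptadine and 1 in DKI, and 2 shifted in strength in Cyproheptadine. Among single genes, merging, added after the data were seen for strength, turned the percentile difference of Tbp from Q111SST to -16.8 points in Q7SST, -3.3 in Cyproheptadine, -7.06 in DKI and -7.85 in Meclizine, and the peak at the reference start turned that of Atxn2 in Q7SST to 12.9 points. The cause of these moves was not tested, other than that merging joins peaks and stricter limits pass fewer. Depth is unknown, so a peak that stops early or splits cannot be told apart from one with too few reads to be called.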
